A study of Homo sapiens with 16 samples.

Results

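The 10 genes described here, HSPA1A, HSPA1B, HSPA8, HSPH1, HSPB1, HSP90AA1, HSPD1, HSPE1, DNAJB1 and BAG3, encode heat shock proteins and partners of them, and were chosen by symbol. The rule holds no measured value, but these members were chosen with earlier results of these data known. All 10 were found among the 18227 genes of the deposited tables. Their levels were followed in 16 RNA sequencing libraries of the non-small cell lung cancer lines A549 and H2023, both long established. Wild-type cells of each line and cells labelled as a ZC3H12A knockout were kept in normal culture (3 days) or in oncosphere culture (7 days), a condition meant to enrich stem-like cells. This gives 8 groups of 2 libraries. ZC3H12A encodes Regnase-1, an RNase that degrades a set of mRNAs. The libraries labelled knockout come from 1 clone in each line, per the titles, so an edit and other properties of a clone cannot be told apart, and neither can culture type and days in culture. The labels do not say that the replicates were separate cultures, so p-values measure the spread between these libraries, which may be technical. The study's title places the work on Regnase-1 in the stem-like phenotype of lung cancer.

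Heat shock proteins are molecular chaperones that hold, fold or hand on other proteins. HSP70 proteins bind exposed stretches of unfolded clients, J proteins such as DNAJB1 deliver clients to them, nucleotide exchange factors such as HSPH1 and BAG3 release the clients, and HSP90 takes over kinases and other near-folded clients. Heat and other proteotoxic stress release the transcription factor HSF1, which binds repeats of nGAAn units, in alternating orientation, upstream of many of these genes. HSPA1A, HSPA1B, HSPA8, HSPH1, HSPB1, HSP90AA1, DNAJB1 and BAG3 act mainly in the cytosol and nucleus. HSPD1 (HSP60) and HSPE1 (HSP10) instead form the chaperonin of the mitochondrial matrix, so the name cytosolic heat shock proteins does not cover these members.

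The 4 stretches below were chosen because they hold the HSF1-type units of the HSP70, HSP90 and HSP60 genes on which the results turn. Each is the 250 bases before a RefSeq start site in GRCh38.p14, printed 5′ to 3′ on the gene's strand. Capitals mark inverted pairs of units, GAANNTTC or TTCNNGAA, merged where they overlap. They lie at chr6:31815293-31815542 (+ strand, HSPA1A), chr11:123062137-123062386 (- strand, HSPA8), chr14:102087045-102087294 (- strand, HSP90AA1, the more downstream of its RefSeq starts) and chr2:197499841-197500090 (- strand, HSPD1, the more downstream of its RefSeq starts).
HSPA1A: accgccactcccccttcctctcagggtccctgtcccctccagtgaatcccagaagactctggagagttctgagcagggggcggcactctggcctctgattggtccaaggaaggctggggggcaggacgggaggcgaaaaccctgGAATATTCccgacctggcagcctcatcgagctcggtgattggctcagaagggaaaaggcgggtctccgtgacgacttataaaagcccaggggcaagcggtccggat
HSPA8: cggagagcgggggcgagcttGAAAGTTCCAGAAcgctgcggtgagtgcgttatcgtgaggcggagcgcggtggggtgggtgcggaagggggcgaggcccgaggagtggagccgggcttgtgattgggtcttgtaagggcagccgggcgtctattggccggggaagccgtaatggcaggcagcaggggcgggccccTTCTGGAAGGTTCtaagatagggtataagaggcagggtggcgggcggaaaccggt
HSP90AA1: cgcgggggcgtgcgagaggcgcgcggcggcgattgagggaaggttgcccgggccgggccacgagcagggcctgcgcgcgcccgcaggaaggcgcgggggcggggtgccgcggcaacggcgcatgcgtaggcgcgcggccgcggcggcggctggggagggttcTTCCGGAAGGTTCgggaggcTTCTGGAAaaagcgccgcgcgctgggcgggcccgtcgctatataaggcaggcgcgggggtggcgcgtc
HSPD1: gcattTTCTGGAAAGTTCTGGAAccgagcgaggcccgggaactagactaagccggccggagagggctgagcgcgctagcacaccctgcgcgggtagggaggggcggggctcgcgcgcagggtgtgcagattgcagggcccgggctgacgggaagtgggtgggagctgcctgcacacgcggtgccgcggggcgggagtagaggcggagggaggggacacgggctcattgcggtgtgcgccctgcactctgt

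A run of 3 alternating units, GAANNTTCNNGAA or TTCNNGAANNTTC, both strands read, was found in windows of 3 of the 10 genes, HSPA8, HSP90AA1 and HSPD1. It occurs in the windows of 166 of 27305 genes with a RefSeq window (0.608%), each window running from 250 bases before to 50 after a start site. HSPA8 holds the run at 2 places, with 217 and 42 bases between the run and the start site. In HSP90AA1 75 bases separate the run from the start site, and a further pair, TTCTGGAA, lies nearer the start. The run of HSPD1 is 18 bases long, at chr2:197500068-197500085, with 227 bases between it and the HSPD1 start used here. The same run lies 293 bases before the start site of HSPE1, which is read in the opposite direction. Every such run contains both pairs. The pair GAANNTTC is in the windows of 7 of the 10 genes and of 8.21% of all genes, and the pair TTCNNGAA in those of 3 of the 10, the same 3 that hold the run, and of 9.46% of all genes. These matches are letters in a fixed window and show no binding, and sequence outside the windows was not searched.

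Among the 10 genes, HSPA8, the constitutive HSP70, and HSP90AA1, the inducible cytosolic HSP90, were the most abundant in TPM, a scale per length and per library total. HSPA8 ran from 456 to 1973 TPM with a median of 1247, and HSP90AA1 from 322 to 1743 TPM with a median of 861. HSPD1, HSPE1 and HSPB1 had medians of 487, 435 and 454 TPM. HSPA1A and HSPA1B, near-identical stress-inducible HSP70 genes whose reads the counting may split, had medians of 211 and 128 TPM. Their sum, which such a split does not change, ran from 183 to 861 TPM. DNAJB1, BAG3 and HSPH1 were lowest, with medians of 107, 68.1 and 33.0 TPM. In GENCODE on GRCh38, HSPH1 lies at chr13:31134974-31162388, HSPB1 at chr7:76302544-76304295, DNAJB1 at chr19:14514770-14529770 and BAG3 at chr10:119651370-119677819. HSPH1 varied most over the libraries, 20.8-fold between the lowest and the highest, and HSPB1 least, 1.67-fold.

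**Figure D1:**
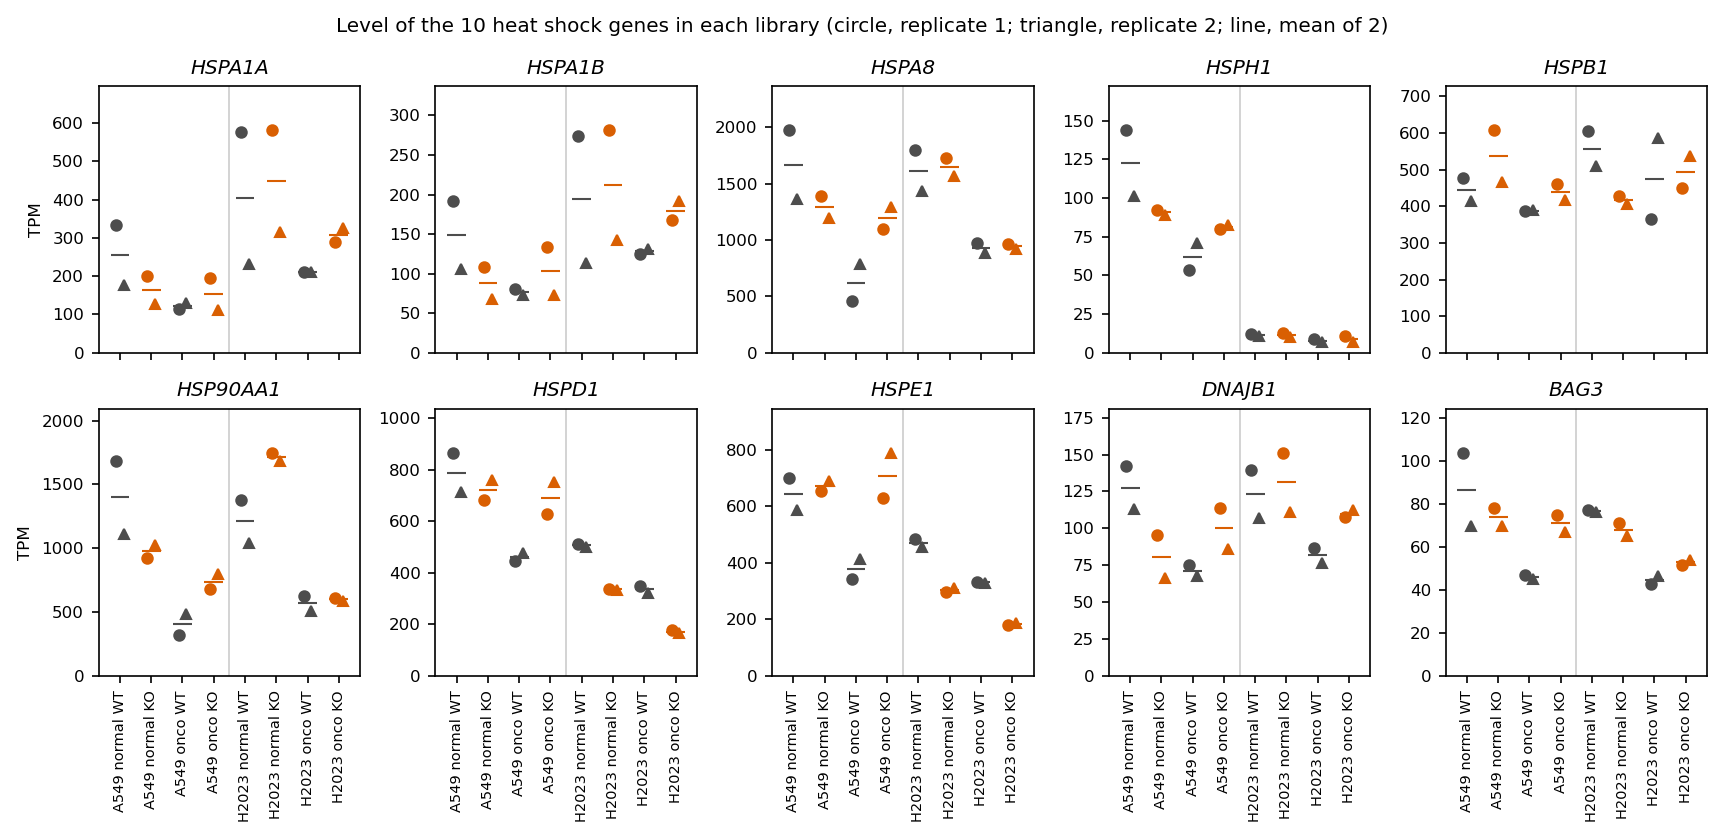
Level in TPM of each of the 10 genes (1 panel each, y axis from 0) in the 8 groups; grey marks wild type and orange libraries labelled knockout, circles replicate 1, triangles replicate 2, and lines the mean of the 2. HSPH1 sits at 53.4 TPM or more in every A549 library and at 12.6 TPM or less in every H2023 library, and HSPD1 and HSPE1 fall to their lowest in H2023 oncosphere libraries labelled knockout.

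Several features of the libraries bear on the values. Between 13824 and 14508 genes reached 1 TPM per library, and TPM retains no sequencing depth, so depth is unknown. Mitochondrial transcripts made up 10.3% to 18.7% of the TPM in normal-culture libraries and 19.5% to 25.6% in oncosphere libraries, and TPM are shares of a fixed total. ZC3H12A mRNA went against its label in 3 of the 4 comparisons. It stood at 30.7 and 34.9 TPM in wild type and 16.9 and 19.9 TPM in knockout-labelled A549 in normal culture, but at 48.5 and 49.2 against 60.2 and 55.6 TPM in A549 oncospheres, 26.8 and 29.9 against 41.5 and 41.5 TPM in H2023 in normal culture, and 32.5 and 26.4 against 94.6 and 69.2 TPM in H2023 oncospheres. An edit may leave the mRNA in place, so this level does not check the protein, and these groups are called labelled knockout throughout. The epithelial keratins KRT8 and KRT18 stood at 765 and 666 TPM or more in every library, whereas EPCAM ran from 0.37 to 1.98 TPM in the 4 A549 normal-culture libraries. Of 11 listed markers of leukocytes, fibroblasts and endothelium, 4 were measured. Their summed level reached 3.65 TPM for fibroblast markers, 2.76 TPM for PECAM1, listed for endothelium, and 18.6 TPM for LYZ, listed for leukocytes. LYZ was the only 1 of 4 listed leukocyte markers measured, and alone it does not identify leukocytes.

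Replicates differed in these genes. In normal culture, replicate 1 was above replicate 2 for 10 of 10 genes in A549 wild type, 7 of 10 in A549 labelled knockout, 10 of 10 in H2023 wild type and 9 of 10 in H2023 labelled knockout. Over all genes of at least 1 TPM the share higher in replicate 1 was 58.2%, 49.3%, 50.9% and 64.7% in these groups. HSPA1A showed the widest gap, with 576 against 231 TPM in H2023 wild type, 2.49-fold. In oncosphere culture the counts were 3, 5, 6 and 4 of 10 in A549 wild type, A549 labelled knockout, H2023 wild type and H2023 labelled knockout.

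The comparison of oncosphere with normal culture asks how the chaperone genes differ between 7 days in a condition meant to enrich stem-like cells and 3 days in the standard one. In wild-type A549, 7 of the 10 genes were lower in oncospheres and 3 did not pass the test, against 21.6% of all 18227 genes called lower and 19.0% called higher (limma, adjusted p under 0.05). HSP90AA1 stood at 1679.7 and 1113 TPM in normal culture and at 322 and 482 TPM in oncospheres. It fell to 0.288 times its level, a log2 change of -1.79 (SE 0.24, limma adjusted p = 0.00080), and the groups did not overlap. With 2 libraries per group, groups can separate without any effect. The share of all genes that do so is not given in this report, here or where overlap is named below. In such bulk libraries fewer cells that express a gene and less of its RNA per cell cannot be told apart. HSPA8 went from 1973 and 1362 TPM to 456 and 789 TPM, also without overlap, with a log2 change of -1.45 (SE 0.27, limma adjusted p = 0.0040). HSPH1, which releases nucleotide from HSP70 and also holds unfolded clients, fell from 144 and 101 TPM to 53.4 and 70.9 TPM.

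The remaining calls in wild-type A549 lay close together in size. BAG3, a co-chaperone that links HSP70 to autophagy, had 103 and 69.4 TPM in normal culture and 46.8 and 44.9 TPM in oncospheres, a log2 change of -0.87. DNAJB1 had 142 and 113 TPM against 74.8 and 67.4 TPM, a log2 change of -0.83. The chaperonin genes changed alike, HSPD1 by -0.77 and HSPE1 by -0.76 on the log2 scale. HSPA1A and HSPA1B, whose replicates lay far apart in normal culture, did not pass. They were at 0.499 and 0.539 times their normal-culture value on the scale of TPM + 1 (limma adjusted p = 0.055 and 0.081). Their summed level was 526 and 285 TPM in normal culture and 195 and 202 TPM in oncospheres. HSPB1, a small heat shock protein that holds clients without ATP, was nearly level, at 478 and 413 TPM against 387 and 389 TPM. A549 wild type 1 in normal culture was above its replicate for all 10 genes, and 6 genes were called lower without that library, all others of the line kept. The call lost there was that of DNAJB1, at -0.66, and it was lost also without oncosphere wild type 2, at -0.75. For such refits the share of all genes called is not given here, so the count cannot be set against it.

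In A549 labelled knockout none of the 10 genes passed the same test, against 9.87% of all genes called lower and 10.9% called higher. At an unadjusted p under 0.05 limma called 0 of the 10 as well, against 34.1% of all genes. HSPA8 had 1390.1 and 1201 TPM in normal culture and 1098 and 1292 TPM in oncospheres, and the groups overlapped. HSP90AA1 had 925 and 1022 TPM against 675 and 798 TPM, lower in both oncosphere libraries. The median change of the 10 genes was -0.09 on the log2 scale, against -0.88 in wild type. The genotype comparisons share these libraries with the culture comparisons. Whether the culture effect differed between the genotypes was tested directly, as the difference of the differences. None of the 10 passed, against 6.65% of all genes, although 7 had limma adjusted p-values between 0.051 and 0.099. These 7 were past an unadjusted p of 0.05, against 25.3% of all genes. HSP90AA1 came nearest, with a difference of 1.39 (SE 0.34, limma adjusted p = 0.051), followed by DNAJB1 at 1.14 (SE 0.29, limma adjusted p = 0.055). With the spread estimated from all 16 libraries 6 of the 10 passed. The share of all genes that passed in that fit is not given here, so this count cannot be set against it. By the difference between the fold changes that the authors' deposited tables give, a count of 7 passed, against 8.31% of all genes.

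In wild-type H2023, 5 genes were lower in oncospheres and none was higher, against 17.4% of all genes called lower and 3.96% called higher. HSP90AA1 stood at 1375 and 1042 TPM in normal culture and at 624 and 510.1 TPM in oncospheres, a log2 change of -1.08 (SE 0.17, limma adjusted p = 0.0083). HSPA8 stood at 1798 and 1434 TPM against 970.3 and 885 TPM, a log2 change of -0.79. BAG3 fell from 76.9 and 75.9 TPM to 42.8 and 46.4 TPM, a log2 change of -0.77 (SE 0.09, limma adjusted p = 0.0039), with little spread in either group. HSPD1 fell by 0.59 and HSPE1 by 0.50 on the log2 scale. The median expressed gene also fell in this comparison, by 0.24 on the log2 scale. After centring each library on its median, 3 genes were called, HSPA8, HSP90AA1 and BAG3. Leaving out the mitochondrial genes also gave 3, namely HSP90AA1, HSPD1 and BAG3. For these refits the share of all genes called is not given here, so the counts cannot be set against it. The HSPA8 call was lost without normal-culture wild type 1 or oncosphere wild type 2.

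The H2023 libraries labelled knockout gave 5 lower genes too, against 19.2% of all genes called lower and 7.68% called higher. HSP90AA1 went from 1743 and 1681 TPM to 609 and 587 TPM, 0.350 times its level in normal culture, with a log2 change of -1.52 (SE 0.17, limma adjusted p = 0.0020). HSPD1 went from 336 and 334 TPM to 176 and 165 TPM, a log2 change of -0.97, and HSPE1 from 295 and 310 TPM to 179 and 187 TPM, a log2 change of -0.72. None of these groups overlapped. HSPA8 changed by -0.80 and BAG3 by -0.36 on the log2 scale. The BAG3 call was lost after median centring, at -0.20 (limma adjusted p = 0.17), without the mitochondrial genes, at -0.14 (limma adjusted p = 0.30), and with the spread taken from all 16 libraries (limma adjusted p = 0.090). The BAG3 call was lost without any 1 of these 4 libraries, and the HSPA8 call, too, without replicate 1 or 2 of normal culture or replicate 2 of oncospheres, which left a count of 3. For those refits, too, the share of all genes called is not given here. HSPB1 stood at 428 and 406 TPM in normal culture and 449 and 537 TPM in oncospheres. Whether the wild-type culture effect differed between H2023 and A549 was also tested, and none of the 10 genes passed, against 14.1% of all genes. At an unadjusted p under 0.05 limma called 29.1% of all genes and 1 of the 10, HSP90AA1.

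**Figure D2:**
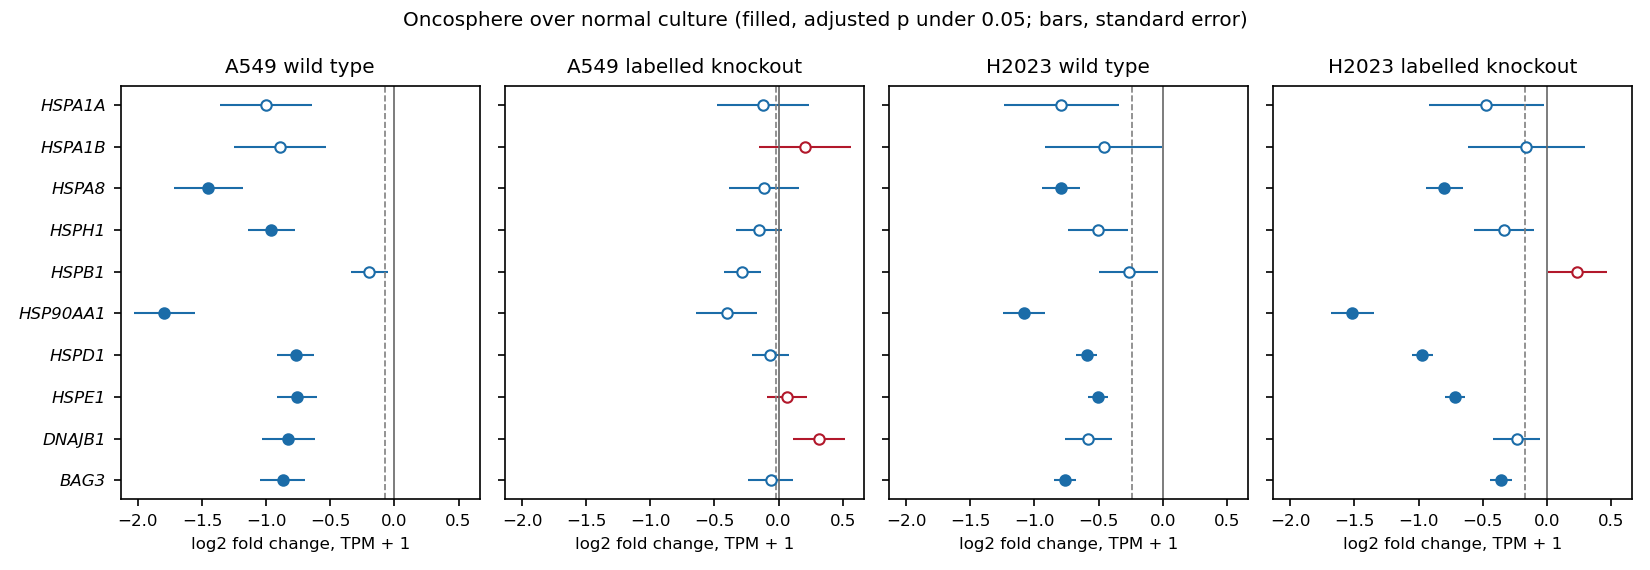
Change of each of the 10 genes in oncosphere over normal culture, as log2 fold change of TPM + 1 (x axis) with its standard error, in the 4 combinations of line and genotype. Filled points passed limma's adjusted p under 0.05, blue is lower and red higher, and the dashed line is the median of all expressed genes; 7, 0, 5 and 5 points are filled from left to right.

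Other chaperone families, from lists of 64 genes of which 61 were measured, were read in the same contrasts. The cytosolic chaperonin, the ring that folds actin and tubulin, was called lower for 8 of its 8 subunits in wild-type A549, in wild-type H2023 and in H2023 labelled knockout, and for 3 of 8 in A549 labelled knockout. TCP1 changed by -1.19 in wild-type A549 and CCT5 by -1.24 in H2023 labelled knockout on the log2 scale. Medians over the 8 subunits were -1.11, -0.41, -0.71 and -0.91 in A549 wild type, A549 labelled knockout, H2023 wild type and H2023 labelled knockout. Over all genes 21.6%, 9.87%, 17.4% and 19.2% were called lower, in the same order. Of 14 genes of HSP90 and its co-chaperones, 10 were lower in wild-type A549, in wild-type H2023 and in H2023 labelled knockout. CHORDC1, a co-chaperone of HSP90, led the lower genes in each, at -1.45, -1.10 and -1.28, and HSP90AB1, the constitutive HSP90, changed by -1.34 and -1.09 in the wild types of A549 and H2023. BAG1, a nucleotide exchange factor of HSP70, was the 1 higher gene of the 14 in wild-type A549, at 0.41. In A549 labelled knockout 4 of the 14 were lower, PTGES3 the most at -0.74, and 2 were higher. On the scale of TPM + 1, FKBP5 was at 2.14 times and BAG1 at 1.95 times its normal-culture value. Of all genes 19.0% were called higher in wild-type A549 and 10.9% in A549 labelled knockout.

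Other HSP70 and HSP110 genes were called lower for 3, 0, 4 and 3 of 9 in A549 wild type, A549 labelled knockout, H2023 wild type and H2023 labelled knockout. HSPA4, an HSP110 protein like HSPH1, changed by -1.10 in wild-type A549 and by -0.79 in H2023 labelled knockout. HSPA4L, its near relative, was higher in A549 labelled knockout, by 1.00. Other J proteins were lower for 4, 0, 1 and 4 of 9. Over all genes 21.6%, 9.87%, 17.4% and 19.2% were called lower in these contrasts. Among the J proteins, DNAJA1 changed by -0.74 in wild-type A549 and DNAJC7 by -0.80 in H2023 labelled knockout. Of the heat shock factor list, HSF4, a factor of the developing lens, was higher in wild-type A549, at 14.4 and 25.5 TPM in normal culture against 58.1 and 64.0 TPM in oncospheres, a log2 change of 1.62. HSF2 was lower in both genotypes of A549, at -0.68 in wild type and -0.63 in labelled knockout, and in wild-type H2023 at -0.62. HSF1 itself was lower in wild-type H2023 alone among the 4 contrasts, at -0.38, and no test compared the contrasts for it. Genes listed as small heat shock proteins moved both ways. HSPB11, listed by its symbol and not checked for chaperone function, was lower in 3 contrasts. CRYAB, the lens crystallin that also holds unfolded proteins, was higher by 1.28 in wild-type A549 and 2.31 in H2023 labelled knockout. CRYAB was low throughout, listed at 0 and 0.69 TPM in wild-type A549 in normal culture and at 1.65 and 2.78 TPM in oncospheres, with 14.5 TPM as its highest level.

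Chaperones of the endoplasmic reticulum, listed for comparison, were higher in 5 and lower in 0 of 13 in wild-type A549, and higher in 6 of 13 in A549 labelled knockout. Over all genes 19.0% and 10.9% were called higher in these A549 contrasts, and 21.6% were called lower in wild type. DNAJB9, a J protein induced by unfolded protein in that compartment, rose by 2.30 and 1.97 on the log2 scale in these contrasts and by 0.99 and 1.71 in the wild-type and knockout-labelled contrasts of H2023. DNAJC3 rose by 1.06 in wild-type A549 and by 1.02 in H2023 labelled knockout. In wild-type H2023 only 1 of the 13 was higher, DNAJB9, and 1 was lower, PDIA4 at -0.40. Of all genes 3.96% were called higher and 17.4% lower there. The medians of the 10 heat shock genes and of this list were -0.88 and 0.20 in wild-type A549 and -0.09 and 0.44 in A549 labelled knockout. In H2023 they were -0.59 and -0.05 in wild type and -0.41 and 0.02 in labelled knockout. Over all expressed genes the medians were -0.072, -0.022, -0.24 and -0.17, in the same order of contrasts.

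**Figure D3:**
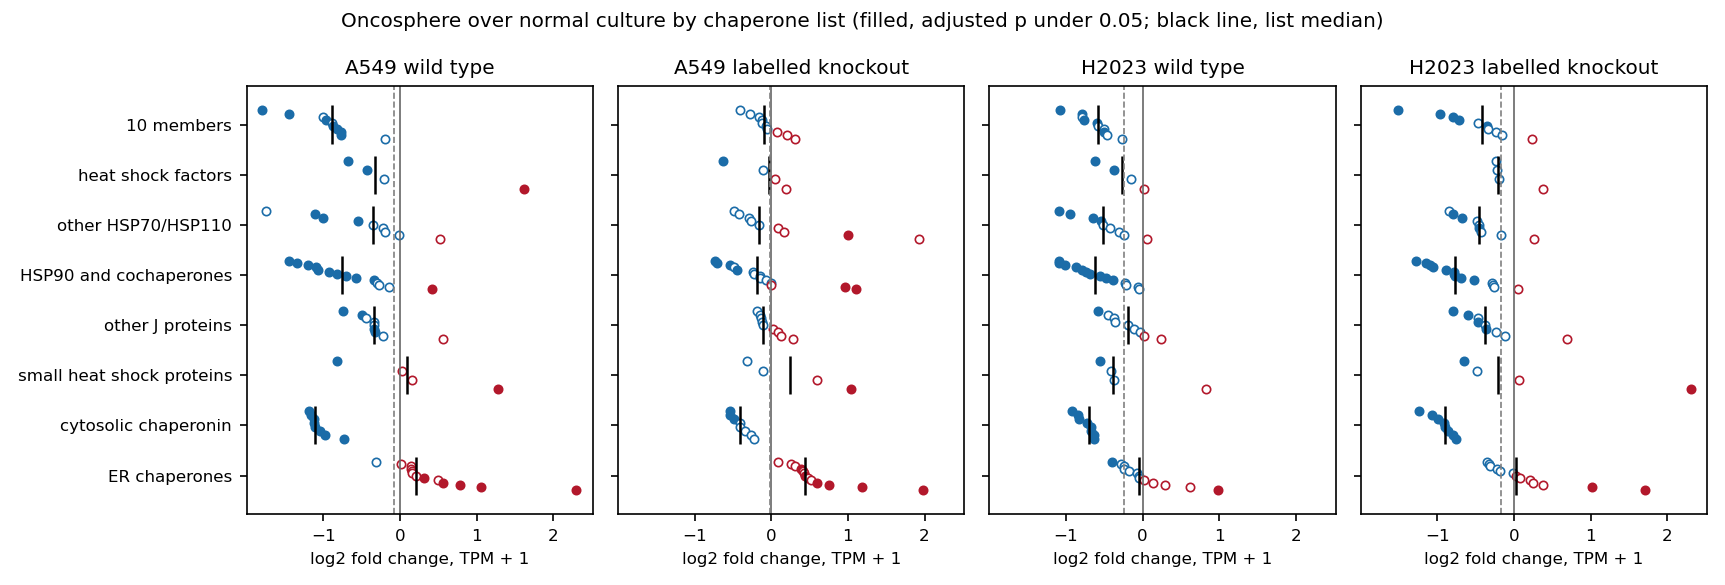
Log2 fold change of TPM + 1 in oncosphere over normal culture for every measured gene of 8 lists (rows), in the 4 combinations of line and genotype; each point is a gene, filled where limma's adjusted p was under 0.05, and black lines are list medians. The cytosolic chaperonin lies wholly below 0 in all 4 panels, with medians from -1.11 to -0.41.

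The comparison of labelled knockout with wild type asks which of these genes differ in the ZC3H12A clones. In A549 normal culture none of the 10 passed limma's test, against 10.8% of all genes at an adjusted p under 0.05, and 1 of 10, DNAJB1, had an unadjusted p under 0.05, against 31.7%. DNAJB1 had 142 and 113 TPM in wild type and 95.1 and 66.3 TPM in labelled knockout, without overlap. In the authors' deposited table it was the only call among the 10, with a log2 fold change of -0.61 (SE 0.20, adjusted p = 0.015), against 10.9% of genes called lower there. HSP90AA1 had 1679.7 and 1113 TPM against 925 and 1022 TPM. HSPA1A stood at 334 and 178 TPM in wild type and at 200.99 and 127 TPM in labelled knockout, with overlap, and did not pass (log2 change -0.60, limma adjusted p = 0.30). HSPA1B, at 192 and 106 against 108 and 67.5 TPM, also overlapped and did not pass (log2 change -0.74, limma adjusted p = 0.21). For both genes replicate 1 was above replicate 2 in each group. A fit with a replicate block, a pairing that the labels do not state, is given below as an alternative. All 8 subunits of the cytosolic chaperonin had a negative change but none passed limma's test, while 4 of 14 HSP90 genes were lower, led by CHORDC1 at -0.99 and TRAP1, the mitochondrial HSP90, at -0.89. HSPA4L was lower as well, at -0.96. What share of all genes had a negative change is not given here. The epithelial marker list was also far apart in this comparison, with a summed level of 7417 to 7626 TPM in wild type and 1450.1 to 2523 TPM in labelled knockout. The part of this difference in the results was not tested.

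In A549 oncospheres 3 of the 10 were higher in labelled knockout and none lower, against 6.04% of all genes called higher and 7.20% called lower. HSPE1 stood at 343 and 413 TPM in wild type and at 627 and 787 TPM in labelled knockout, a log2 change of 0.90 (SE 0.16, limma adjusted p = 0.026). BAG3 stood at 46.8 and 44.9 against 74.7 and 66.8 TPM, a log2 change of 0.61 (SE 0.11, limma adjusted p = 0.025). HSPD1 stood at 445 and 475 against 629.8 and 754 TPM, a log2 change of 0.58 (SE 0.13, limma adjusted p = 0.044).

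The groups did not overlap for any of these 3 genes, and all 10 genes had a positive change, against a median of 0.042 over expressed genes. What share of all genes had a positive change is not given here, so the count of 10 cannot be set against it. For HSPA1A, labelled knockout 1 and 2 stood at 195.44 and 110.74 TPM, against 113.98 and 128.92 TPM in wild type. For HSPA1B they stood at 133.77 and 72.52 TPM, against 80.86 and 72.59 TPM. Labelled knockout 2 was thus below both wild-type libraries for these 2 genes. HSPA8 and HSP90AA1, with log2 changes of 0.99 and 0.90, missed the threshold (limma adjusted p = 0.076 and 0.055), and HSPA8 went from 456 and 789 TPM in wild type to 1098 and 1292 TPM in labelled knockout. Without wild type 1 the HSPA8 change was 0.59, and without wild type 2 it was 1.38. In the authors' deposited table HSPA8, HSP90AA1, HSPE1, BAG3 and HSPD1 were higher, against 9.29% of genes called higher. None passed in limma when any 1 of the 4 libraries was left out, which leaves 1 group with a single library. Among the pathway lists, limma called DNAJB5, DNAJA1 and HSPB8 higher, by 0.94, 0.59 and 0.62, and no gene of the lists lower. The library A549 oncosphere wild type 1 held the lowest HSPA8 and HSP90AA1 levels of the series. It also held the highest summed level of the listed leukocyte, fibroblast and endothelial markers, 18.6, 3.65 and 2.76 TPM, the leukocyte value being LYZ alone. The wild-type libraries of this culture had 6.81 and 18.6 TPM of LYZ, against 0.28 TPM and a listed 0 in labelled knockout. The epithelial list overlapped between these groups in its sum, but KRT19 was at 46.8 and 101 TPM in wild type and 3.29 and 5.92 TPM in labelled knockout, and EPCAM at 7.94 and 9.40 against 0.82 and 1.03 TPM. The part of these markers in the results was not tested.

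In H2023 the mitochondrial chaperonin genes were lower in the libraries labelled knockout in both cultures. HSPD1 had 511 and 499.9 TPM in wild type and 336 and 334 TPM in labelled knockout in normal culture, and 348 and 323 TPM against 176 and 165 TPM in oncospheres. HSPE1 had 482 and 456 TPM against 295 and 309.7 TPM in normal culture, and 333 and 329 TPM against 179 and 187 TPM in oncospheres. Every library labelled knockout was below every wild-type library of its culture for both genes, and the share of all genes so separated is not given here. The summed epithelial markers were higher in labelled knockout in both cultures, 9816 to 10677 TPM against 5887 to 7299 TPM in normal culture and 6553 to 7087 TPM against 3420 to 3446 TPM in oncospheres, and their part in the results was not tested.

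Limma called none of the 18227 genes in either H2023 comparison, so its 0 of 10 says little. At an unadjusted p under 0.05 it called 4 of the 10 and 18.2% of all genes in normal culture, and 5 of the 10 and 15.5% of all genes in oncospheres. In the authors' deposited table for normal culture, HSPD1 had a log2 fold change of -0.60 (SE 0.11, adjusted p = 4.0e-06) and HSPE1 of -0.64 (SE 0.13, adjusted p = 1.7e-05). HSPB1 was also lower there, at -0.39 (SE 0.13, adjusted p = 0.030), and HSP90AA1 was higher, at 0.50 (SE 0.14, adjusted p = 0.0087), against 6.97% of genes called lower and 3.84% called higher. For oncospheres the authors' deposited table called HSPD1 at -1.05 (SE 0.17, adjusted p = 5.6e-08) and HSPE1 at -0.91 (SE 0.18, adjusted p = 3.6e-05) and no other of the 10, against 2.85% of genes called lower. A limma fit over the 8 libraries of the line also called these genes, and only these of the 10, in both cultures. For that fit the share of all genes called is not given here, so the calls cannot be set against it.

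HSP90AA1 is given here for both cultures of H2023. Its level was 1375 and 1042 TPM in wild type and 1743 and 1681 TPM in labelled knockout in normal culture, without overlap. In oncospheres it was 624 and 510.1 TPM against 609 and 587 TPM, with overlap. The difference between these effects was tested, and none of the 10 passed, nor any of the 18227 genes in limma, with 2 of the 10, HSPD1 and BAG3, and 7.10% of all genes past an unadjusted p of 0.05. Taking the fold changes from the authors' deposited tables instead, the difference called 0.390% of genes and none of the 10. HSPA1A and HSPA1B were at 210 and 211 and at 125 and 132 TPM in wild-type H2023 oncospheres, and at 290 and 327 and at 168 and 192 TPM in labelled knockout. Those groups did not overlap, and neither gene was called by limma or in the authors' deposited table.

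**Figure D4:**
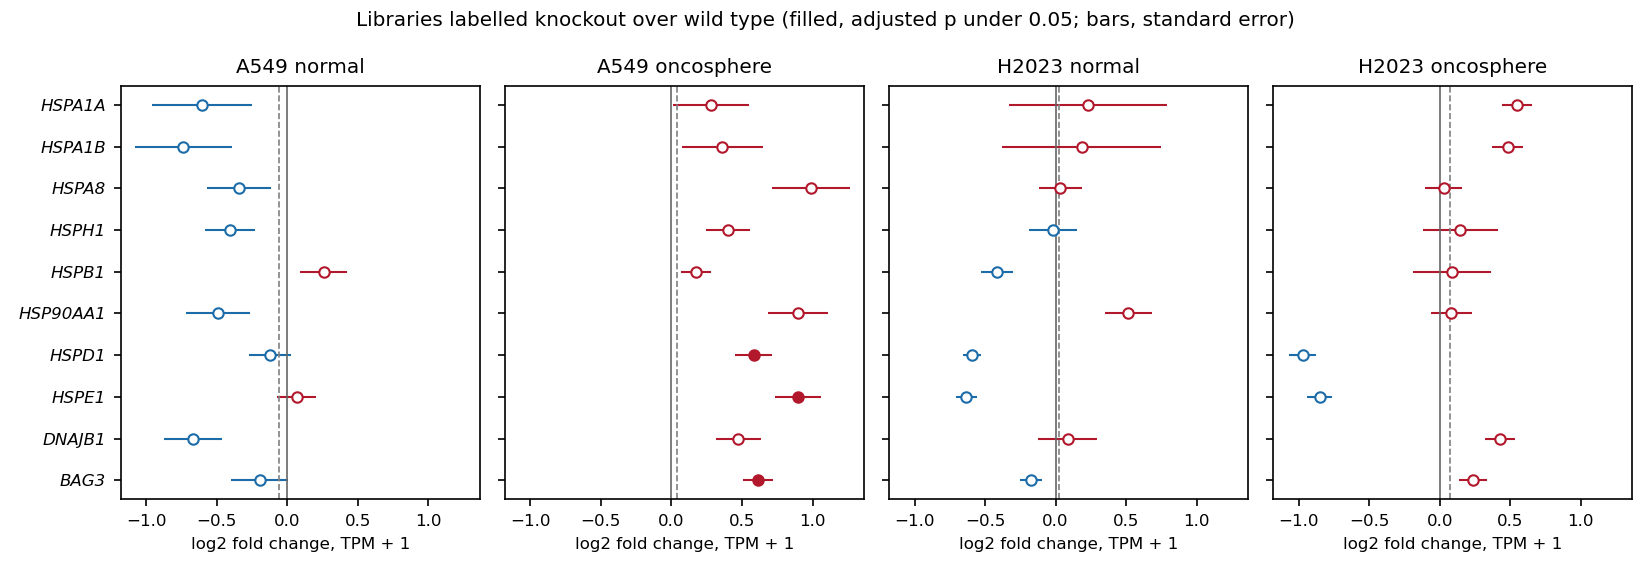
Change of each of the 10 genes in libraries labelled knockout over wild type, as log2 fold change of TPM + 1 (x axis) with its standard error, for each line and culture. Filled points passed limma's adjusted p under 0.05, and the dashed line is the median of all expressed genes; HSPD1 and HSPE1 are at 0.58 and 0.90 in A549 oncospheres and on the negative side in both H2023 panels.

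The difference of the knockout-labelled effect between the lines was tested over all 16 libraries. In oncospheres HSPE1 differed by -1.75 (SE 0.18, limma adjusted p = 1.1e-04) and HSPD1 by -1.55 (SE 0.17, limma adjusted p = 1.2e-04), H2023 minus A549, the 2 of 10 that passed, against 16.3% of all genes. In normal culture HSPE1 passed, with a difference of -0.70 (SE 0.18, limma adjusted p = 0.029), against 12.1% of all genes, and HSPD1 did not, at -0.47 (SE 0.17, limma adjusted p = 0.092). HSP90AA1 differed by 1.01 in normal culture and did not pass (SE 0.31, limma adjusted p = 0.058). The HSPE1 call in normal culture was lost without either labelled knockout library of either line or without H2023 wild type 2, and the oncosphere count was 4 without A549 wild type 2. For the fits without a library the share of all genes called is not given here. Each line is represented by 1 clone, so line and clone cannot be told apart in these values.

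HSPD1 and HSPE1 lie head to head on chromosome 2. The more upstream RefSeq start of HSPD1, 197500274 on the - strand, and the HSPE1 start, 197500379 on the + strand, are 105 bases apart in GRCh38.p14. The HSPD1 run given above lies before the other HSPD1 start, 197499840, and after this one, so it is not between the 2 start sites named first. In GENCODE's GRCh38 annotation HSPE1 (197499994 to 197503457) falls within the span of the longest HSPD1 model (197486581 to 197516737). The libraries were made with a stranded kit, but whether the counting used strand is not given in the sources used here, so reads in the shared span may not have been told apart. Their levels followed each other over the 16 libraries with r = 0.981 on the log2(TPM + 1) scale, and the TPM ratio of HSPE1 to HSPD1 stayed between 0.771 and 1.14. The HSPD1 run printed above lies within the span that both annotated genes share.

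Further pairs of the 10 were also close over the libraries. HSPA1A and HSPA1B, 12195 bases apart on chromosome 6, had r = 0.973 and a TPM ratio of 1.41 to 2.20. The counting may split reads between these near-identical genes, and the part of this in their closeness was not tested. HSPA8 and HSP90AA1, on different chromosomes, had r = 0.951. The lowest value was r = -0.54, between HSPA1A and HSPH1. These correlations describe 16 libraries that share lines, cultures and clones, and carry no test.

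The lines were compared in wild type. HSPH1 set them apart, with 144 and 101 TPM in A549 and 12.0 and 10.8 TPM in H2023 in normal culture, a log2 difference of -3.30 (SE 0.21, limma adjusted p = 5.5e-07), H2023 over A549. In oncospheres it had 53.4 and 70.9 against 8.63 and 6.92 TPM, a log2 difference of -2.84 (SE 0.21, limma adjusted p = 1.2e-06). In normal culture HSPD1 and HSPE1 were lower in H2023 as well, by -0.63 and -0.45, so 3 of 10 were lower and none higher, with the HSPE1 call lost without A549 wild type 1 or H2023 wild type 2, against 14.9% of all genes called lower and 26.6% called higher.

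In oncospheres HSPD1 was lower in H2023 by -0.46 and HSPA8 higher by 0.63 (SE 0.24, limma adjusted p = 0.046), against 24.4% of all genes called lower and 23.4% called higher. HSPA8 had 456 and 789 TPM in A549 and 970.3 and 885 TPM in H2023. Its call was lost without A549 oncosphere wild type 1, where the log2 difference was 0.23, and without either H2023 library. Between the lines 41.5% of all genes differed in normal culture and 47.8% in oncospheres, so 3 of 10 in each culture is no excess.

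Among the genes whose pattern over the 16 libraries was most like the mean standardised level of the 10 were CRY1 (r = 0.904, a circadian repressor), FCF1 (r = 0.903, a ribosomal RNA processing factor), CAPRIN1 (r = 0.898, an RNA-binding protein of stress granules) and PPP1R9B (r = 0.898, a protein phosphatase 1 partner). They were among the highest of 14813 candidate genes with a mean of at least 1 TPM, the 10 left out. CAPRIN1 ran from 107 to 225 TPM. Of the genes on the chaperone lists, HSPB11 ranked 16, CCT4 27, DNAJA1 33 and HSPA4 50, the highest among them. Others ranked far lower, such as HSPA9 at 6357, BAG1 at 11522, DNAJB2 at 13127 and CRYAB at 14103 with r = -0.614. HSF1 ranked 6148 with r = 0.242. HSF1 ran from 63.4 TPM in A549 oncospheres labelled knockout to 122 TPM in wild-type H2023 in normal culture.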

How the data were processed

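RNA was sequenced from 16 libraries with a stranded mRNA kit, per the labels' protocols. HISAT2, StringTie and the build GRCh38 are named, without versions, per the submitters' processing notes. Each line and culture has 1 deposited table, 4 in all, with the authors' TPM value of every gene in each library. Per the file headers, the authors' deposited columns also give a mean normalized count (an average signal over the 4 libraries), a log2 fold change (knockout against wild type) and its standard error, a statistic (a score) and an adjusted p-value, under the names DESeq2 uses. In all 18361 rows the statistic and the fold change have opposite signs, and the fold change was used for direction. Rows that repeat an identifier were identical and used once, leaving 18227 genes.

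Because the tables hold no counts per library, log2(TPM + 1) values were tested with limma 3.58.1 under R 4.3.3, its trend option on. This scale understates the change of low genes. Tests were two-sided with Benjamini-Hochberg adjustment over all 18227 genes and a threshold of 0.05, without a filter on low values, so all 10 members were tested. Labelled knockout was compared with wild type over the 4 libraries of a table, cultures over the 8 libraries of a line, and lines over all 16, in 15 comparisons. On simulated libraries, limma recovered 78 of 100 genes changed by 1 on the log2 scale in the A549 normal-culture design and 3 of 100 in the H2023 oncosphere design. Replicates were mapped by the column names. Depth per library is unknown, since TPM keeps none, and no counting interval could be given.

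The named genes are the 10 members, from each pathway list up to 3 genes with the largest absolute change among those past the threshold in a comparison, the 5 genes most like the members' mean pattern, 1 of which is not reported here, and ZC3H12A. The members and the lists were chosen with earlier results of these data known. Alternatives covered the pseudocount, a filter at a mean of 1 TPM, leaving out 15 mitochondrial genes, median centring, a replicate block, other sets of libraries, the authors' deposited fold changes and leaving out each library. Gene positions come from GENCODE on GRCh38 and promoter windows from RefSeq on GRCh38.p14, where all 10 members matched.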

Additional observations from a re-analysis of the deposited data

Results flagged for a closer look

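The effect of the label knockout on the mitochondrial chaperonin genes differed between the lines by a test of the difference itself, H2023 minus A549, with limma over all 16 libraries. In oncospheres the difference was -1.75 for HSPE1 and -1.55 for HSPD1 on the log2 scale, as both genes were higher in both A549 libraries labelled knockout and lower in both H2023 libraries labelled knockout than in wild type. In normal culture the difference was -0.70 for HSPE1. Each line has 1 clone.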

How the results depend on the processing

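The number of members called was within 1.5 times its value in 134 of 173 alternatives over 15 comparisons, higher in 25 and lower in 14, and the cause of these changes was not tested unless fewer libraries enter a fit. For labelled knockout over wild type in A549 normal culture (0 called) the replicate block gave 3, HSPA1A, HSPA1B and DNAJB1, all lower, with limma adjusted p-values of 0.035, 0.020 and 0.025, and the authors' deposited values gave 1. In A549 oncospheres (3) the filter, the replicate block, the 8-library fit and the authors' deposited table gave 5 each, and leaving out 1 library gave 0 in every case. In H2023 normal culture (0) the filter gave 2, median centring 1, the 8-library fit 2 and the authors' deposited values 4. In H2023 oncospheres (0) the 8-library fit and the authors' deposited table gave 2. For the culture effect in wild-type H2023 (5), leaving out mitochondrial genes and median centring gave 3 each. The A549 difference of effects between cultures (0) gave 3 with the filter, 1 without mitochondrial genes, 2 with the replicate block, 6 with 16 libraries and 7 from the authors' deposited fold changes. The line difference in normal culture (1) gave 2 with the filter, 2 with the replicate block and 4 from the authors' deposited fold changes, and in oncospheres (2) it gave 4 from the latter. The counts in this paragraph carry no share of all genes, so they cannot be set against it.

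Leaving out 1 library gave 6 to 9 called for the culture effect in wild-type A549, 4 to 5 in wild-type H2023, 3 to 4 in H2023 labelled knockout, 0 to 2 for the A549 difference between cultures, 0 to 1 for the line difference in normal culture, 2 to 4 in oncospheres, 2 to 4 for each wild-type line comparison, and 0 to 1 for the line difference of the culture effect. In H2023 labelled knockout the count was 3 without replicate 1 or 2 of normal culture or replicate 2 of oncospheres. The call of HSPE1 in the normal-culture line difference was lost without either A549 library labelled knockout, either H2023 library labelled knockout or H2023 wild type 2. In oncospheres that line difference rose to 4 without A549 wild type 2. A group left with 1 library is assumed to vary like the others. These counts, too, carry no share of all genes and cannot be set against it.

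The median change of the 10 members turned sign in 8 of 173 alternatives. For H2023 normal culture labelled knockout it was 0.007 and became -0.025 in the authors' deposited table, -0.30 without wild type 2 and -0.22 without labelled knockout 1, and the other libraries left out gave up to 0.12. For the culture effect in A549 labelled knockout it was -0.09 and 0.0036 without normal-culture replicate 1, with -0.16 as the lowest value. For the H2023 difference between cultures it was 0.23 and became -0.21 without normal-culture wild type 1 and -0.10 without labelled knockout 2, with 0.40 as the highest value. For the wild-type line comparison in normal culture it became 0.13 without A549 wild type 1 and 0.07 without H2023 wild type 2, with -0.36 as the lowest value. Over 58 gene-level results, 551 of 663 alternatives kept direction and call, 68 gained a call and 44 lost it, and none turned sign.

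The labels do not say that a replicate number marks a shared batch, and each comparison holds only 2 same-numbered pairs, so the numbers were not taken to pair the samples and the replicate block is given as an alternative. Deviations of same-numbered libraries of wild type and labelled knockout correlated over 14823 genes at 0.075 and 0.131 in A549 normal and oncosphere culture and at 0.027 and 0.461 in H2023. Between cultures these correlations were 0.121 and 0.096 in A549 wild type and labelled knockout and 0.162 and 0.134 in H2023.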

Other observations

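HSPA6, a strictly stress-inducible HSP70 chosen for mention after its values were seen, stood at 18.2 TPM in the library A549 oncosphere labelled knockout 1 and between 0.13 and 2.86 TPM in the other 15 libraries. Its replicate held 0.24 TPM. In the same pair of libraries HSPA1A had 195 and 111 TPM, HSPA1B 134 and 72.5 TPM and DNAJB1 114 and 86.0 TPM, while HSPE1 had 627 and 787 TPM. The authors' deposited table puts HSPA6 4.0 higher on the log2 scale in labelled knockout, not passing the test (adjusted p = 0.200).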
